A study of Mus musculus with 2 samples.

Results

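Neighbouring peaks of opposite lists are open chromatin sites that were listed as unique to one of 2 adipose progenitor populations and whose centre, the mean of start and end, lay under 5000 bp from the centre of a site listed for the other population. They numbered 1421 of 22485 listed peaks. Of these, 712 belonged to the CD137 list of 14483 peaks (4.92%) and 709 to the PDGFRα list of 8002 peaks (8.86%). The distance between centres chose these peaks, so the members were chosen by measured values, and the distances and both shares are descriptions.

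The CD137+ and the PDGFRα+ group each consisted of 1 ATAC-seq library from C57BL/6 mouse adipose tissue. Per the labels, cells of both groups were isolated with magnetic beads from SAT or VAT, exposed to an adipogenic cocktail and treated with 1 µM dexamethasone, a synthetic glucocorticoid. Every sample thus carried the drug, and the depot behind each group, the age of the animals and the number pooled are not stated. The labels' extraction text speaks of embryonic cells, which differs from the adipose source given elsewhere. Each listed peak has a position, a place class and, outside intergenic space, an Ensembl gene ID, but no height or read number. Depth is therefore unknown, marker genes cannot be checked by level, and all intervals below cover counting error only. Differences could not be set against a spread between replicates, and p-values are left out.

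ATAC-seq marks DNA that a transposase can enter, which is mostly promoters and enhancers free of nucleosomes. A gene is often served by several such elements, and related cell types can use different elements of the same gene, including alternative promoters that give different transcripts. In fat progenitors, PDGFRα marks stromal precursor cells and CD137, the protein of Tnfrsf9, has been used as a marker of beige precursors. A neighbouring pair is a place where each population had its own listed site within a few kilobases. Since shared peaks are not listed, such a pair does not show that the locus is closed in either population outside the listed sites.

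The promoter sequences that follow belong to loci where the listed sites lie on gene starts. They are RefSeq sequences of GRCm38.p6, read 5′ to 3′, from 250 bases before to 50 bases after a start. They are shown because Acot11, Shox2 with Rsrc1 and S100a4 with S100a3 are loci in which each population's peak covers a different start, and because Tsc22d3 and Wnt5b have a start in one population's peak and not in the other's. Capitals mark matches on either strand to the TEAD motif GGAATG, the AP-1 motif TGANTCA, the C/EBP motif TTNNGCAA, the EBF palindrome or the glucocorticoid receptor palindrome. These pairs on starts were chosen after their values were seen.
Tsc22d3 start in the CD137 peak (chrX:140600473-140600772, minus strand): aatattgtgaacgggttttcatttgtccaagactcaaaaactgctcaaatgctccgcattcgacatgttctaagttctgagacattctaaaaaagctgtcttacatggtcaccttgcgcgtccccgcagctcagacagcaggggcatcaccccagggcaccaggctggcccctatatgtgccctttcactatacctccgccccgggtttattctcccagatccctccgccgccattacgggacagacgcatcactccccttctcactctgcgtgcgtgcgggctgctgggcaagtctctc
Acot11 start in the CD137 peak (chr4:106804958-106805257, minus strand): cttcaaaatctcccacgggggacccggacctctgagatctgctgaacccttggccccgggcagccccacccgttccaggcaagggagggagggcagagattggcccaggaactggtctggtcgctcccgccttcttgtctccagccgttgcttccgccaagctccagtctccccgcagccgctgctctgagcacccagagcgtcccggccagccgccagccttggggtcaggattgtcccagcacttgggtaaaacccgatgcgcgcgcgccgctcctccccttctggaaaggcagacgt
Acot11 start in the PDGFRα peak (chr4:106799782-106800081, minus strand): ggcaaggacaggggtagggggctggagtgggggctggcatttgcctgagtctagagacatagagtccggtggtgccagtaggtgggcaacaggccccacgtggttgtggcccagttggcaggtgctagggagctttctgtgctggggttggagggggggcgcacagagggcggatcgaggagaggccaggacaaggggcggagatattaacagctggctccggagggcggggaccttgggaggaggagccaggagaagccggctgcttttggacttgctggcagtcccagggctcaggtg
Shox2 start in the CD137 peak (chr3:66981722-66982021, minus strand): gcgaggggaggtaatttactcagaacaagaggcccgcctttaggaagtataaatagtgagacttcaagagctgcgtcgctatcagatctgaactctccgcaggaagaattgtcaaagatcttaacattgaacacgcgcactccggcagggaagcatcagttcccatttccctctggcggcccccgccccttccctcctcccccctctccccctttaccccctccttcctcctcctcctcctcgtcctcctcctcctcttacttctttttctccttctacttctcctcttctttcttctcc
Rsrc1 start in the PDGFRα peak (chr3:66985412-66985711, plus strand): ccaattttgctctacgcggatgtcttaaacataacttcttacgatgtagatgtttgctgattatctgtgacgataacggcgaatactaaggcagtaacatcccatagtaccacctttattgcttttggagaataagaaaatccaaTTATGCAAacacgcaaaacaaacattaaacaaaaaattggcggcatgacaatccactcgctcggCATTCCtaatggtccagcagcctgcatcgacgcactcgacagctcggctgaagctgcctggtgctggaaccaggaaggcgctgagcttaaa
Rsrc1 start in the PDGFRα peak (chr3:66985717-66986016, plus strand): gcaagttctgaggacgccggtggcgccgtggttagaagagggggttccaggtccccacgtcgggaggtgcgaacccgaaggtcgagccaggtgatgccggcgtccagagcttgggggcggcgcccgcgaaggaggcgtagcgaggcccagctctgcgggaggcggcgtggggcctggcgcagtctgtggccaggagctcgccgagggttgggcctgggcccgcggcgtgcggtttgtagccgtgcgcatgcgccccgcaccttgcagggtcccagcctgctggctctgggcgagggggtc
S100a4 start in the CD137 peak (chr3:90603520-90603819, plus strand): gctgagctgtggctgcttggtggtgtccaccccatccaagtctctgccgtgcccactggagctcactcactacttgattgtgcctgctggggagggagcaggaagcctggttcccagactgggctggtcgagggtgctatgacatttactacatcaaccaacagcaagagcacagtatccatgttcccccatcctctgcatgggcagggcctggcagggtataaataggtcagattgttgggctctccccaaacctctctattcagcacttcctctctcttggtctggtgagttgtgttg
S100a3 start in the PDGFRα peak (chr3:90599964-90600263, plus strand): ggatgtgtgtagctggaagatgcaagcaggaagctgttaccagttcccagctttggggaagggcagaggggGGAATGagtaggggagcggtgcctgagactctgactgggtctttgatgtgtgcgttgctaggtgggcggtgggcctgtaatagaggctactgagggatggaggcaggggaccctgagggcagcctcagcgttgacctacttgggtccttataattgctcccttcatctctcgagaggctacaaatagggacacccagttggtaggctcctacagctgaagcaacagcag
Wnt5b start in the PDGFRα peak (chr6:119449337-119449636, minus strand): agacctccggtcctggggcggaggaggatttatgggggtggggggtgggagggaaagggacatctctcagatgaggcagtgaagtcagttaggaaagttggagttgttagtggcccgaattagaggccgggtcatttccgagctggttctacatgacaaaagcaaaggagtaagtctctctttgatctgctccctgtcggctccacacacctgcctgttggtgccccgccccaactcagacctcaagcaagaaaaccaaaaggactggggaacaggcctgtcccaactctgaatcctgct
Matches were found in the first Rsrc1 window, which held a C/EBP and a TEAD match, and in the S100a3 window, which held a TEAD match. The other windows printed here held none of the 5 motifs. All windows lay inside the named peak except that of S100a3, whose upstream part began before the PDGFRα peak. The TEAD match of S100a3 lies in that part, outside the peak.

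The 1421 peaks formed 724 pairs and 697 separate loci. Of these loci, 672 (96.4%) held 1 CD137 and 1 PDGFRα peak. A further 13 held 2 CD137 peaks and 1 PDGFRα peak, 10 held 1 CD137 and 2 PDGFRα peaks, and 2 held 2 of each. In each locus exactly 1 pair was mutually nearest, so 697 such pairs were used below to compare classes and genes. The CD137 peak lay at the lower coordinate in 336 of them (48.2%, Wilson 95% interval 44.5 to 51.9%), an interval that includes an even split.

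Within a pair, the peaks ranged from touching to several kilobases apart. The median distance between centres was 3158 bp (interquartile range 2225 to 4028 bp), and the median gap between the facing edges was 1683 bp (785 to 2574 bp). The edges met, with a gap of 0 bp, in an intergenic pair on chromosome 5 that lay 29.3 kb from Fzd10. The facing edges were under 100 bp apart in 22 pairs (3.04%) and under 1000 bp apart in 222 (30.7%). Only 1 pair had its centres under 1000 bp apart, 131 pairs had them 1000 to 2000 bp apart, and each further 1000 bp up to the limit held 186 to 205 pairs. The limit cuts a continuous range. Just inside it, pairs at Tnc and near Thumpd3 had distances of 4995 and 4988.5 bp, and just outside it, pairs at Car12 and Nedd9 had distances of 5007.5 and 5020 bp.

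Neighbouring peaks were wider than the rest of their lists. The median width was 1320 bp (interquartile range 1127 to 1586 bp) for CD137 neighbours and 1216 bp (1030 to 1421 bp) for the other CD137 peaks. For PDGFRα neighbours it was 1325 bp (1112 to 1563 bp), against 1230 bp (1032 to 1444 bp) for the other PDGFRα peaks. The interquartile ranges overlapped within each list.

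A gene of the glucocorticoid response, the pathway through which dexamethasone acts, held the opposite pair with the shortest distance between centres. It lay at Tsc22d3, which encodes GILZ, a glucocorticoid-induced leucine zipper protein with anti-inflammatory action. The CD137 peak at chrX:140600224-140600951 covered a Tsc22d3 start, and its centre was 65.5 bp from that start. The PDGFRα peak at chrX:140599099-140600161 lay within the gene, with its near edge 361 bp from the start. The centres were 957.5 bp apart and the edges 63 bp apart. The CD137 site thus sat on the promoter window of this start, printed above, and the PDGFRα site just downstream of it. This start is the outer end of a gene span of 61.0 kb, and which transcripts of the gene it serves was not examined. Both carried ENSMUSG00000031431.

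Fkbp5 and Pik3r1 of the same list had a pair as well. Fkbp5, the co-chaperone that restrains the glucocorticoid receptor, had an exonic CD137 peak at chr17:28446123-28447306 and an intronic PDGFRα peak at chr17:28447402-28448805, with edges 96 bp apart. Pik3r1, the regulatory subunit of phosphatidylinositol 3-kinase, had intronic sites at chr13:101718666-101720307 in the CD137 list and chr13:101717063-101718434 in the PDGFRα list, 1738 bp apart by centres. Of the 30 genes on the glucocorticoid list, 14 had a listed peak, and 3 of CD137's 20 peaks and 3 of PDGFRα's 10 peaks at them were neighbours. That is 20% of the peaks at these genes, against 6.93% of all 12273 assignments of a peak to a gene. Gmeb1, which encodes a protein that binds glucocorticoid modulatory elements and was not on the list, held one of the 5 closest opposite pairs by centres. It is placed here by its function, after the closest pairs were seen, and the others are given below. It had an intronic CD137 peak at chr4:132260131-132261305 and a PDGFRα peak at chr4:132261545-132262152. The latter covered its start at chr4:132261549, just inside the edge of the peak.

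TEAD1, the transcription factor named in the study's title, had 1 pair. TEAD proteins bind DNA and recruit YAP and TAZ, the effectors of the Hippo pathway. The CD137 site at chr7:112703253-112704094 and the PDGFRα site at chr7:112699502-112700957 were both in introns under ENSMUSG00000055320, with centres 3444 bp and edges 2296 bp apart. One further CD137 peak at Tead1 had no PDGFRα neighbour. Among 34 Hippo and TEAD genes, 21 had a peak and 2 had neighbours. The second was Fat1, an atypical cadherin upstream of the pathway, with intronic sites 2886 bp apart. At the 21 genes, 2 of 25 CD137 and 2 of 16 PDGFRα peaks were neighbours (9.76%), against 6.93% over all genes. Tnfrsf9, Pdgfra and Nr3c1, the receptor gene for dexamethasone, had no neighbouring pair, and the nearest neighbouring CD137 peaks lay 144, 190 and 619 kb away.

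**Figure D1:**
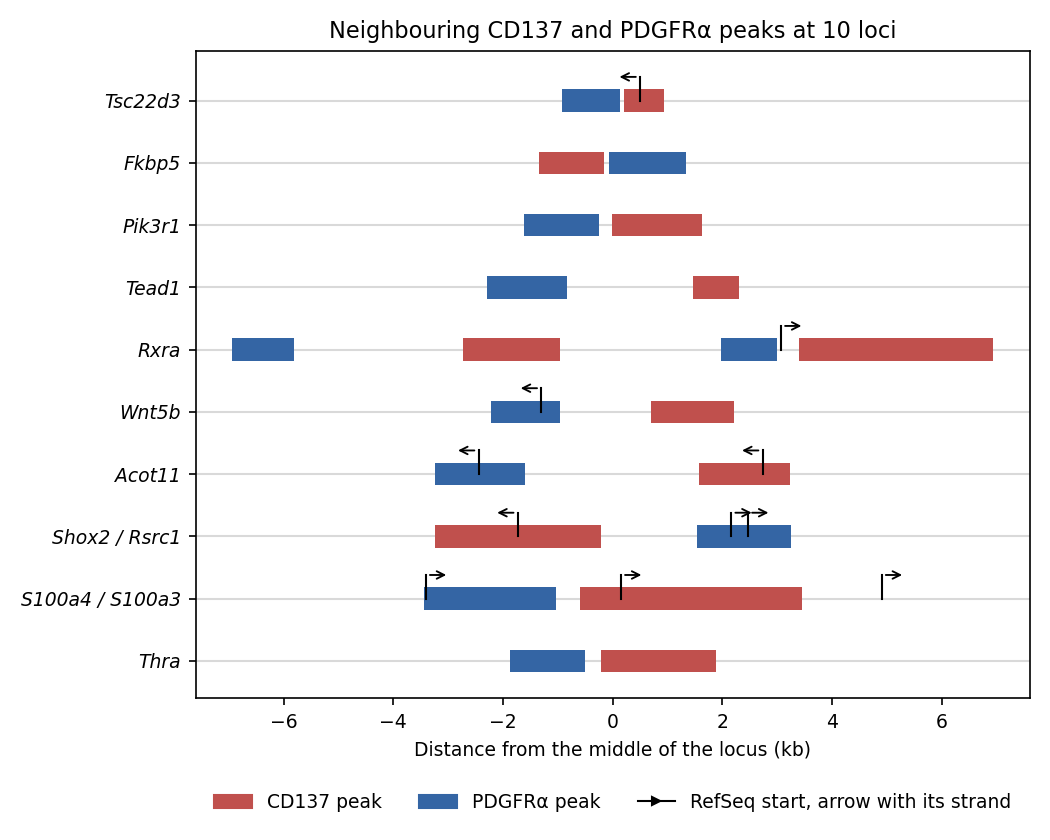
Positions of CD137 peaks (red bars) and PDGFRα peaks (blue bars) at 10 loci, in kb from the middle of each locus, with RefSeq gene starts as arrows pointing along the strand. At Tsc22d3 the CD137 peak holds the drawn start and the PDGFRα peak lies 63 bp beyond its edge, whereas at Acot11 each peak holds a start of its own. At Rxra the peaks alternate and the drawn start falls between them. The start of the Rxra gene span, not drawn, lies in a PDGFRα peak.

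Among adipocyte genes, the neighbours lay at Rxra. It encodes the retinoid X receptor that pairs with PPARγ, the nuclear receptor that drives fat cells to form. Its 2 CD137 and 2 PDGFRα neighbours alternated along 13872 bp from chr2:27667200 to chr2:27681072. The RefSeq span of this plus-strand gene begins at chr2:27676445, inside the PDGFRα peak at chr2:27676114-27677122. That peak ended 79 bp before a further start taken from the promoter windows. The CD137 peak at chr2:27677531-27681072 began 330 bp beyond this further start, which lay in neither list. Upstream of these starts, a second CD137 peak lay between both PDGFRα peaks.

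Of 30 adipocyte genes 13 had a peak, and Rxra was the only one with a neighbour. Its neighbours were 2 of the 18 CD137 and 1 of the 14 PDGFRα peaks at these genes (9.38%), against 6.93% over all genes, since the outer PDGFRα peak of the locus lay 8.68 kb from the gene and was not given to it. None of 31 thermogenic and beige genes was given a neighbour, although 16 had peaks. Shox2, a homeobox gene used as a marker of beige precursors, comes next to them, because the centre of a CD137 neighbour lay 0.5 bp outside the gene. That peak, at chr3:66980257-66983286, covered the Shox2 start. It also held chr3:66981364, where the RefSeq span of Rsrc1, a splicing factor gene read in the other direction, begins. The peak was therefore given to Rsrc1. A PDGFRα peak at chr3:66985040-66986749, 4123 bp away by centres, covered 2 further starts of Rsrc1. The TEAD and C/EBP matches in the first Rsrc1 window printed above lie under this PDGFRα site, and so does the second window, which has no match and a GC content of 72.7%.

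Signalling genes of the Wnt, BMP and FGF families held 6 genes with pairs among 22 with peaks. Their neighbours made up 17.1% of the 41 CD137 and 29 PDGFRα peaks at them, against 6.93% over all genes. Wnt5b, a non-canonical Wnt ligand, had an exonic PDGFRα peak at chr6:119448471-119449725 over a start and an intronic CD137 peak at chr6:119451395-119452908, 2009 bp from that start. Lrp5, a Wnt co-receptor, had intronic sites 3267 bp apart, and Dkk3, of the Dickkopf family of secreted proteins, had sites 3119.5 bp apart. Bmp6, a BMP ligand, had intronic sites 1920 bp apart. Fgf2, a fibroblast growth factor, had an exonic CD137 and an intronic PDGFRα site 2190.5 bp apart. Gli2, a transcription factor of Hedgehog signalling, had intronic sites 4492 bp apart. Lrp5 and Gli2 were named after their values were seen, so that all 6 genes are given.

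Matrix genes held 3 genes with pairs among 24 with peaks. Col4a1, a basement membrane collagen chain, had intronic sites whose edges were 47 bp apart, a CD137 site at chr8:11261017-11263316 and a PDGFRα site at chr8:11257844-11260970. Tnc, the matrix glycoprotein tenascin C, had 2 CD137 sites on either side of 1 PDGFRα site, all intronic. Ltbp1, which anchors latent TGF-beta in the matrix, had intronic sites 2191.5 bp apart. In the 24 genes 4 of 41 CD137 and 3 of 23 PDGFRα peaks were neighbours (10.9%), against 6.93% over all genes.

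Among the homeobox and forkhead genes, Foxp1, a forkhead repressor, had 2 loci, with intronic sites 2529.5 and 3189 bp apart, and it was the only gene of 19 with peaks. Of the neuronal and long genes, a list that tracks gene length, 3 of 21 with peaks had neighbours, namely Dlg2, Dpp10 and Ctnna3, which came to 3.75% of their 108 CD137 and 52 PDGFRα peaks. Mesothelial genes held a pair at Upk1b, a uroplakin, with sites 2629.5 bp apart, and early embryo genes held one at Zp2, a zona pellucida glycoprotein, with sites 4636 bp apart. No gene of the stromal progenitor, immediate early, DNA methylation, endothelial or immune lists was given a neighbour, with 17, 12, 7, 9 and 8 genes that had a listed peak. Across all 6141 genes with a peak, 421 (6.86%) had a neighbour. The lists hold 15 to 43 genes each, and nothing particular to a list is read from such counts.

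Genes with pairs were long beside all protein-coding genes, yet shorter than other genes with peaks of both lists. Of 1568 genes with peaks of both lists, 389 (24.8%) had neighbours of both. Their median length was 103 kb (interquartile range 39.3 to 210 kb), against 142 kb (78.7 to 279 kb) for genes with peaks of both lists but no neighbours of both and 17.2 kb for all protein-coding genes. Of 566 genes with exactly 1 peak of each list, 128 (22.6%) had them side by side. The rule asks for near centres, and a shorter gene leaves less room between its peaks. These lengths and shares are therefore descriptions. No gene had more than 2 loci, and 14 had 2.

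Values for some of these 14 genes follow. Arhgap6, a GTPase-activating protein, had 2 loci with centre distances of 1052 and 1542 bp, and in the second the CD137 peak covered an Arhgap6 start. Arhgap24, a related protein, had 2 CD137 and 3 PDGFRα neighbours. Kalrn, a guanine nucleotide exchange factor, had loci at 2219.5 and 4241.5 bp. Snx9, a sorting nexin of endocytosis, had 3 CD137 and 2 PDGFRα neighbours, which were all the peaks listed at it. At Slc16a10, a transporter of aromatic amino acids, all 2 CD137 and 2 PDGFRα peaks were likewise neighbours. The others were Abca13, Dclk1, Dnm3, Gse1, Myo3b, Plekha2, Ppfibp1, Trak1 and Foxp1.

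By centre distance, the closest opposite pairs lay in varied settings. After Tsc22d3 and Arhgap6 came Ctnnd2, a delta-catenin gene, where an exonic CD137 peak at chr15:30172840-30173983 and a PDGFRα peak over the start at chr15:30171875-30172697 were 143 bp apart by their edges. Slc23a2, a vitamin C transporter, had its start under the PDGFRα peak and the CD137 peak 21 bp away within the gene, where the list names another Ensembl ID. Trabd2b, which encodes a protease that inactivates Wnt proteins, had both sites classed up5k, 22 bp apart by their edges, although the centre of the PDGFRα site lay within the RefSeq gene. Sit1, an adaptor of T cell signalling, had sites 1173.5 bp apart by centres, and Adgb, a globin-like gene, had them 1207 bp apart. The remaining 2 of the 10 closest lay away from protein-coding genes, 75.1 kb from Rnf152 and 239 kb from Gata6.

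Among the other named loci with 3 or 4 neighbours, most lay outside genes. Near E2f6, a transcriptional repressor, 2 CD137 and 2 PDGFRα sites alternated over 10915 bp, 9.51 kb from the gene at the nearest. A PDGFRα site stood between 2 CD137 sites near Slc25a26, near Itsn2, near Flrt2 and near Rhbdd2, all over 5 kb from these genes. The same arrangement lay in introns of Fyn, a Src-family kinase. At Scfd2 a CD137 site stood between 2 PDGFRα sites, while near Thumpd3 both PDGFRα sites lay on one side of the CD137 site.

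The sites of a pair usually shared their setting. Both had the same place class in 527 of 697 mutually nearest pairs (75.6%, Wilson 95% interval 72.3 to 78.7%). Both were intergenic in 255 pairs and both intronic in 198, whereas 38 were both up5k, 21 both down5k and 15 both exonic. An exon stood next to an intron in 31 pairs with the exonic site in the CD137 list and in 26 with it in the PDGFRα list. Nearness favours a shared class, so these counts are descriptions.

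**Figure D2:**
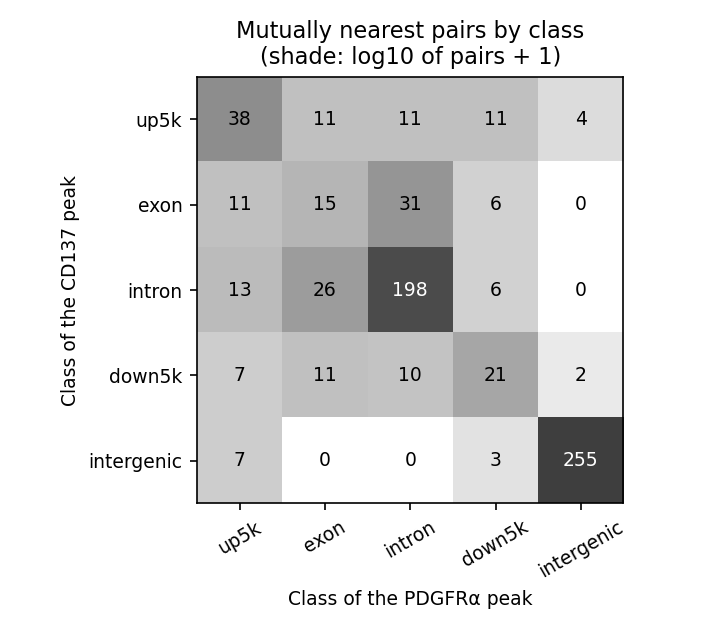
Number of mutually nearest pairs for each combination of the CD137 peak's class (rows) and the PDGFRα peak's class (columns), with darker cells for more pairs on a log scale. The diagonal holds 527 of 697 pairs, led by 255 intergenic and 198 intronic ones.

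The sites of a pair mostly belonged to one gene where a gene was named. The same Ensembl ID was given to both in 391 pairs (56.1%, 52.4 to 59.7%), different IDs in 35 (5.02%), no ID to either in 255 (36.6%) and an ID to only 1 of them in 16 (2.30%). Among pairs with 2 IDs, 391 of 426 (91.8%, 88.8 to 94.0%) thus named one gene. Nearness favours a shared gene too, so these counts are descriptions. By position, 400 pairs (57.4%) had both centres at the same RefSeq gene and 273 (39.2%) had no protein-coding gene within 5 kb of either centre. Intergenic pairs lay a median of 38.3 kb from the nearest protein-coding gene (interquartile range 17.7 to 106 kb), and 5 lay over 500 kb away, the farthest 1259 kb from Nmbr.

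By place class, the intergenic share was lower in CD137 neighbours than in the rest of the CD137 list by more than counting error. Intergenic peaks made up 38.2% of CD137 neighbours and 45.7% of the other CD137 peaks, a difference of -7.50 percentage points (Newcombe 95% interval -11.1 to -3.78), which became -4.98 points (-11.1 to 1.45) with centres under 2500 bp. They made up 37.5% of PDGFRα neighbours and 38.8% of the other PDGFRα peaks, a difference of -1.25 points with an interval that includes 0 (-4.91 to 2.54). When the 8002 widest CD137 peaks alone were used, the PDGFRα difference was -5.15 points (-9.37 to -0.691). For up5k the differences were 2.14 points (0.0262 to 4.67) in the CD137 list, with 10.7% of neighbours and 8.53% of the rest, and -0.219 points (-2.43 to 2.38) in the PDGFRα list, with 10.9% and 11.1%. The CD137 up5k difference turned to -0.129 points (-3.10 to 4.16) with centres under 2500 bp, and its interval also included 0 under 10000 bp, with the widest CD137 peaks, among wider peaks and with up5k and down5k as one class. The lists were not compared with each other in these differences by any test. Since each CD137 neighbour stands beside a PDGFRα neighbour, their class shares were close, with intervals of the difference that include 0 in all 5 classes, such as -4.35 to 5.71 points for intergenic.

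**Figure D3:**
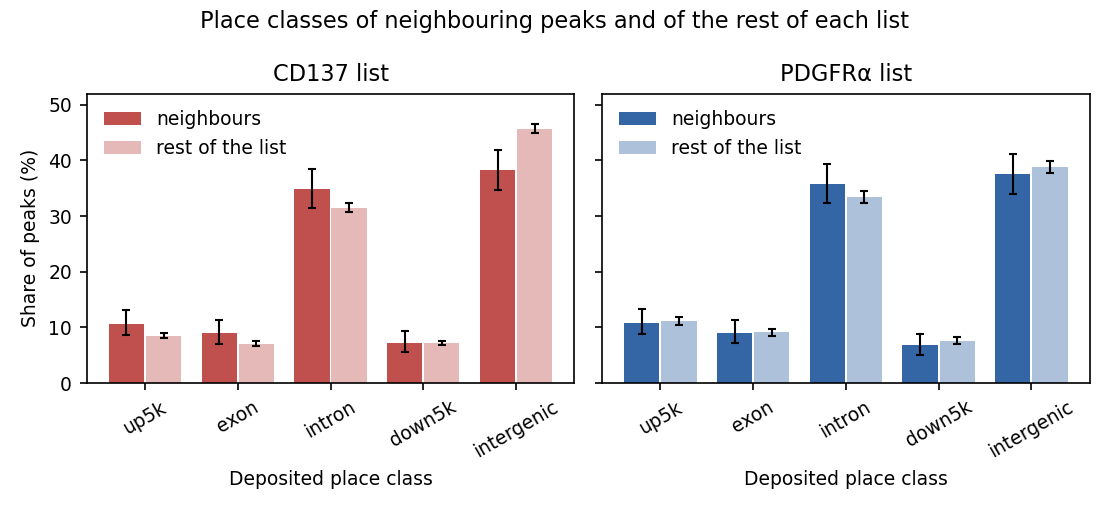
Share of peaks in each deposited place class for neighbours (dark bars) and for the rest of the list (pale bars), with Wilson 95% intervals, in the CD137 list (left) and the PDGFRα list (right). The intergenic share is 38.2% among CD137 neighbours and 45.7% in the rest of that list, while the PDGFRα bars lie at 37.5% and 38.8%.

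The classes up5k and down5k followed genome coordinate more than gene direction. Among CD137 peaks that covered starts of plus-strand genes only, 76.7% of 249 were classed up5k and 2.41% down5k. Among those on minus-strand starts, 17.2% of 250 were up5k and 61.2% down5k. In the PDGFRα list the up5k and down5k shares were 76.5% and 1.81% of 166 peaks on plus-strand starts, and 34.7% and 56.2% of 144 peaks on minus-strand starts. The CD137 peak on the Tsc22d3 start, for instance, was classed down5k, since the gene lies on the minus strand. A class of up5k is therefore not the same as a promoter, and distances to RefSeq starts were used as well.

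Measured from gene starts, neighbours of both lists lay closer than the rest. Starts were known for 17492 of 21887 protein-coding genes, with none on chromosome 18. The median distance from a centre to the nearest of them was 41.4 kb for 684 CD137 neighbours and 70.7 kb for 13236 other CD137 peaks. It was 40.6 kb for 681 PDGFRα neighbours and 48.0 kb for 7048 other PDGFRα peaks. Centres over 50 kb from a start made up 43.9% of CD137 neighbours and 58.1% of the rest, a difference of -14.2 points (-18.0 to -10.4), and 43.2% of PDGFRα neighbours and 49.0% of the rest, a difference of -5.86 points (-9.72 to -1.94). Centres within 5 kb of a start were 11.5% and 7.16% in the CD137 list, a difference of 4.39 points (2.16 to 7.04), and 11.0% and 8.60% in the PDGFRα list, a difference of 2.42 points (0.174 to 5.07). The lists' own distance from genes moves with this result, and peaks of both lists are needed for a pair, so the part that gene density plays was not tested.

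**Figure D4:**
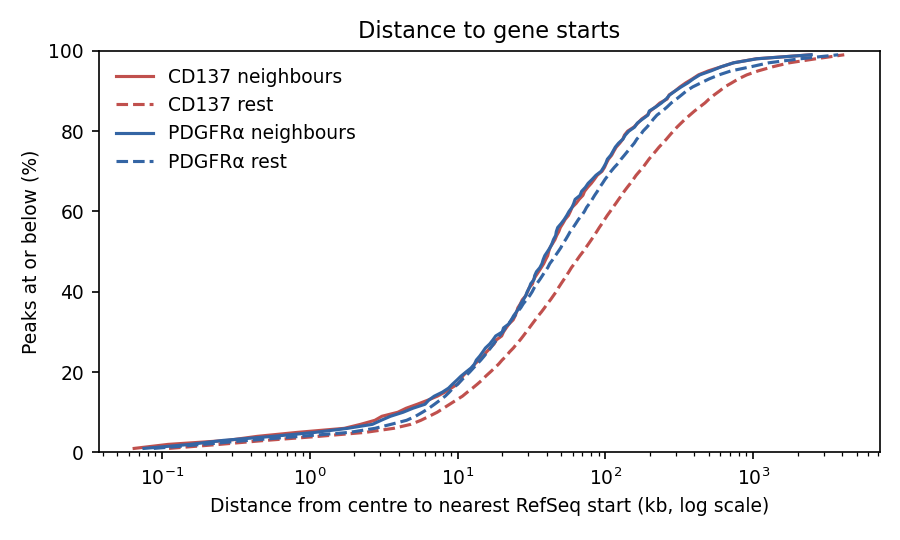
Cumulative share of peaks by the distance from their centre to the nearest RefSeq start of a protein-coding gene, on a log scale in kb, for neighbours (solid) and the rest of each list (dashed). Both solid lines run together, with medians of 41.4 and 40.6 kb, and the line for the rest of the CD137 list lies farthest right, with a median of 70.7 kb.

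Most pairs lay away from known starts, and where one site covered a known start the other usually did not. Of 669 mutually nearest pairs on chromosomes with known starts, neither site covered a known start in 611 (91.3%). The CD137 site alone covered one in 29, the PDGFRα site alone in 24 and both did in 5. Starts were known for 17492 of 21887 genes and not for every transcript, so 611 is an upper limit. The Rxra pair, for instance, is among the 611 although its PDGFRα site holds the start of the gene span. CD137 sites covered known starts of Aqp7, the glycerol channel of fat cells, Fth1, the ferritin heavy chain, and Csrp1, a LIM domain protein. The PDGFRα sites lay 3246.5, 4420.5 and 3083.5 bp away. PDGFRα sites covered the starts of Sulf2, a heparan sulfate sulfatase, Cxcl10, an interferon-induced chemokine, and Mta1, a subunit of a deacetylase complex, with CD137 sites 1552.5, 4402 and 2144.5 bp away. These genes were chosen after their values were seen.

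The 5 pairs with a known start under both sites were at Fetub, Dlg3, Acot11, Shox2 with Rsrc1 and S100a4 with S100a3. Acot11, an acyl-CoA thioesterase linked to thermogenic fat, had 1 of its minus-strand starts under the CD137 peak at chr4:106803846-106805510 and another, downstream, under the PDGFRα peak at chr4:106799043-106800680. The windows printed above show that these starts differ, with 20 CpG dinucleotides in the CD137 window and 9 in the PDGFRα window. S100a4, a calcium-binding protein also called fibroblast-specific protein, had its start under the CD137 peak at chr3:90603024-90607067. The neighbouring gene S100a3 had a start under the PDGFRα peak at chr3:90600176-90602580. At Dlg3, a scaffold protein gene on the X chromosome, the sites covered different plus-strand starts and their centres were 2471.5 bp apart. At Fetub, a liver-secreted cystatin, the sites were 1403 bp apart.

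Where both sites were nearest to the same gene and at least 1 was within 5 kb of its start, the nearer site could belong to either list. The CD137 site was nearer in 43 of 80 such pairs (53.8%, 42.9 to 64.3%). The sites lay on opposite sides of the start in 42 of the 80. In 27 of these 42 (64.3%, 49.2 to 77.0%) the CD137 site was downstream and the PDGFRα site upstream, an interval that still includes an even split.

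Further pairs, by class on a flank, in the gene body or on both, were as varied. Thra, the thyroid hormone receptor alpha gene, had an exonic CD137 site at chr11:98741722-98743818 and a PDGFRα site classed up5k at chr11:98740056-98741435, with edges 287 bp apart. Clip4, a microtubule-binding protein gene, and Prtg, a membrane protein of early development, had sites 1951.5 and 2553 bp apart, with the intronic one in the PDGFRα list at Clip4 and in the CD137 list at Prtg. At Slc17a1, a phosphate transporter gene, an intronic CD137 site covered a start. Rars, for arginyl-tRNA synthetase, and an ID without a protein-coding gene nearby, 10.3 kb from Dnah7c, had an exonic site next to an up5k site. At Rars, and likewise at Prtg, the list gave the up5k site a different Ensembl ID from its neighbour. Mfap4, a microfibril-associated protein gene, Reep4 and Cacnb2, a calcium channel subunit gene, had both sites classed up5k. Despite this class, both Cacnb2 sites lay within its RefSeq gene span. Within introns, the shortest pairs at genes besides Arhgap6 were at Myo3b, Tox, a chromatin factor of T cells, and Mid1, a ubiquitin ligase, at 1215, 1219.5 and 1288.5 bp.

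Motifs were counted in whole promoter windows whose start lay under a neighbouring site. Windows of Fetub, Vps37c and Plppr4 in the CD137 list and of Mta1, S100a3 and Gmeb1 in the PDGFRα list reached beyond the peak. The TEAD motif occurred in 0 of 35 windows of CD137 neighbours (interval up to 9.89%), 4 of 35 of PDGFRα neighbours (11.4%, 4.54 to 26.0%) and 14.7% of 32851 RefSeq windows. Among the 4 PDGFRα windows, the S100a3 match lay outside the peak. The AP-1 motif occurred in 4 of 35, 1 of 35 and 7.81%, and the C/EBP motif in 3 of 35, 4 of 35 and 10.8%. The E-box CANNTG, which is common by its short length, occurred in 25 and 22 of the 35 windows and in 72.3% of all. The EBF and glucocorticoid motifs occurred in none of these windows and in 0.904% and 0.00913% of all. The neighbours' windows were starts of protein-coding genes only, whereas the 32851 windows were not limited to these. Median GC content was 54.3% in the CD137 windows, 62.3% in the PDGFRα windows and 52.7% in all. The sets are thus unlike. No match means only that these letters are not in this window. The intervals of the neighbours' shares overlap in each motif.

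Opposite neighbours were set beside neighbours within one list. A CD137 peak lay under 5000 bp from 8.86% of PDGFRα peaks and from 3.61% of other CD137 peaks, a difference of 5.25 points (4.57 to 5.95). A PDGFRα peak lay that near to 4.92% of CD137 peaks and 1.95% of other PDGFRα peaks, a difference of 2.97 points (2.49 to 3.43). Neighbours also had a second peak of their own list under 5000 bp less often than the rest, at 2.11% and 3.69% in the CD137 list and at 0.705% and 2.07% in the PDGFRα list.

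The density of pairs by distance shows where this contrast sits. Opposite pairs numbered 186 at 4 to 5 kb and 153 at 5 to 6 kb. Pairs of 2 CD137 peaks numbered 72 at 4 to 5 kb and 148 at 5 to 6 kb, and pairs of 2 PDGFRα peaks 20 and 67. Per 1000000 possible pairs on a chromosome and per kb, opposite pairs had a density of 23.5 under 5 kb, 22.4 from 5 to 10 kb and 19.9 from 50 to 100 kb. CD137 pairs had 9.37, 26.0 and 20.4, and PDGFRα pairs 9.18, 34.1 and 25.9. Within each list, peaks nearer than 5 kb were thus scarce up to a sharp edge, and beyond that edge pairs within a list were at least as dense as opposite pairs up to 10 kb. The step lies at the same distance in both lists, and the sources used here do not give how the authors' peak calling or selection of unique peaks treats near peaks. Its part in the contrast was not tested.

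**Figure D5:**
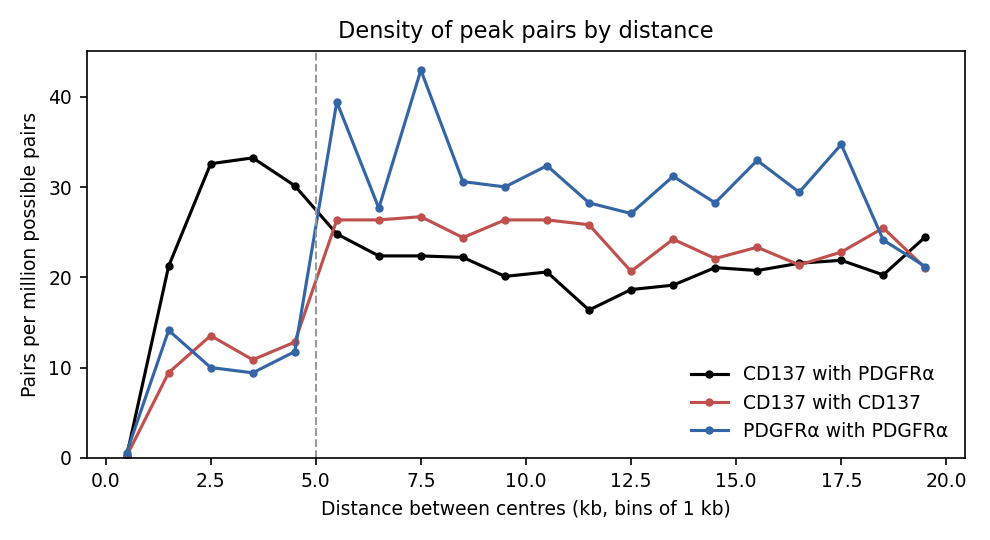
Pairs per 1000000 possible pairs and per kb on the same chromosome, by distance between centres in bins of 1 kb, for CD137 with PDGFRα peaks (black), CD137 with CD137 peaks (red) and PDGFRα with PDGFRα peaks (blue), with the limit of 5 kb dashed. Both within-list lines step up at 5 kb, where CD137 pairs number 72 before and 148 after, and the black line does not.

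Along the genome the neighbours were spread over all autosomes and the X chromosome. The share of peaks that were neighbours ranged in the CD137 list from 3.76% on X to 6.79% on chromosome 17, and in the PDGFRα list from 6.49% on X to 11.3% on chromosome 3. Their Wilson intervals overlapped, with 2.16 to 6.46% on X and 4.97 to 9.22% on chromosome 17 in the CD137 list. The Y chromosome, with 2 CD137 and 4 PDGFRα peaks, had no neighbours. Within 50 kb, CD137 neighbours had a mean of 0.872 other CD137 peaks and the rest 0.800, and PDGFRα neighbours had 0.530 other PDGFRα peaks and the rest 0.568. One miRNA hairpin, Mir6991, lay inside a neighbour, a CD137 peak at chr19:7422517-7424265.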

How the data were processed

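ATAC-seq was measured in 2 libraries, 1 per group. The authors deposited, per the file headers, a list of unique peaks for each library with chromosome, start, end, Ensembl gene ID and place class. These other values are positions and classes, with no count, signal or score. Genome build mm10 and CASAVA 1.8 are named in the submitters' processing notes. Aligner, peak caller, threshold, any shift for the transposase, the rule for unique peaks and whether starts count from 0: none is given in the sources used here. Coordinates are those of the lists.

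Opposite pairs had centres under 5000 bp apart, and linked pairs were joined into loci. A peak was given to the RefSeq protein-coding gene (GRCm38.p6, 21887 genes) around its centre, or failing that to the nearest one within 5 kb. Starts came from RefSeq promoter windows (21263 starts of 17492 genes), a table without chromosome 18, which was left out of start distances. Shares carry Wilson and differences Newcombe 95% intervals, with no test. The 16 gene lists all matched, and the members, lists and rules were chosen with earlier results of these data known. The rule for named genes took the study's genes, the 10 loci with most neighbours, the 10 closest pairs, the 5 closest of 4 class combinations, up to 4 genes per list and the pairs at the limit, and a few results under it are not reported here. Pair finding, gene assignment and intervals were tested on simulated data. Software was scipy 1.17.1, numpy 2.4.6, matplotlib 3.10.9 and pandas 2.3.3 under Python 3.11.15. Motifs were searched in promoter windows only, since no genome sequence was used here.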

Additional observations from a re-analysis of the deposited data

Results flagged for a closer look

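In 3 place classes the difference between neighbours and the rest of the list had opposite signs in the CD137 and PDGFRα lists. The up5k difference was 2.14 points in the CD137 list and -0.219 points in the PDGFRα list, the exon difference 1.92 and -0.105 points, and the down5k difference 0.0926 and -0.881 points. The difference between the lists was not tested, and with 1 library per list it has no replicate check. All of these intervals include 0 except that of the CD137 up5k difference (0.0262 to 4.67), which also included 0 in 5 of its 8 alternatives.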

How the results depend on the processing

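No paired analysis was possible because each group has a single library, so leaving out a library was not possible either. Depth could not be taken into account. With centres under 2500 bp, each list had 235 neighbours in 235 loci, and with centres under 10000 bp there were 1354 CD137 and 1313 PDGFRα neighbours in 1255 loci. Among peaks at or above the median width of their list there were 320 and 317 in 313 loci. The CD137 up5k difference turned to -0.129 points under 2500 bp, with an interval that includes 0 (-3.10 to 4.16), and the cause was not tested. The CD137 intergenic difference stayed negative in all 7 settings run, though under 2500 bp its interval includes 0. The PDGFRα intergenic difference was -5.15 points (-9.37 to -0.691) when the 8002 widest CD137 peaks were used. Pairs under one Ensembl ID made up 51.5% under 10000 bp and 61.0% among wider peaks. Pairs of the same class made up 78.7% under 2500 bp, 71.1% under 10000 bp, 71.6% with the widest CD137 peaks and 71.6% among wider peaks. Within 50 kb, 43 listed genes had a neighbour, against 22 genes that were given one by the gene assignment used above. That assignment passes over genes such as Shox2 when another gene holds the centre. The counts thus differ in rule as well as in distance. Added after the data were seen were up5k and down5k as one class and every alternative for opposite against same-list neighbours. For CD137 neighbours that difference was 1.74 points under 2500 bp, 3.43 under 10000 bp and 3.44 with the widest CD137 peaks. For PDGFRα neighbours it was 0.698, 0.364 (-0.432 to 1.14) and 4.14 points, and 2.13 points between edges.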
